A study of Mus musculus with 16 samples.

Results

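The 38 genes examined here encode the enzymes and transporters of glycolysis and the components and well-known targets of the cellular response to low oxygen. They were taken from a list of gene symbols, and 36 were measured by a probe set that named exactly 1 gene, among 18820 genes measured in all. The list was chosen with earlier results of these data known, so its shares beside those of all genes are descriptions only. Gpi1 and Eno1, which encode the glucose-6-phosphate isomerase and the main enolase, were not analysed here. The cells were of the line RAW264.7, mouse tumour cells with a macrophage character that arose after infection with a leukemia virus. They were kept for 24 h in 4 conditions, with 4 arrays each. Control cells received the vehicle, given as ethanol for these arrays. The other groups received docosahexaenoyl serotonin (DHA5HT, serotonin joined to an n-3 fatty acid) at 1 µM, lipopolysaccharide (LPS, an outer membrane component of Gram-negative bacteria) at 1 µg/ml, or both. No group carried an added transgene or gene deletion per the labels, and no label named a low-oxygen condition.

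Glycolysis splits glucose into pyruvate, which is either reduced to lactate and exported or oxidised in mitochondria. Hypoxia-inducible factor 1 (HIF-1) induces many of its enzymes. The alpha subunit is marked for destruction by prolyl hydroxylases when oxygen is present, so its protein is short-lived in normal air. Macrophages exposed to LPS are known to raise glycolysis and to accumulate HIF-1 alpha without oxygen shortage, and transcript levels alone do not report the activity of either.

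HIF-1 binds short DNA elements with the core ACGTG or GCGTG. The promoters of 5 genes are shown because P4ha2 changed with DHA5HT in LPS-treated cells and the others were among the largest changes with LPS. Each line holds the 160 bases just before the annotated start, written 5′ to 3′ on the gene's strand, from the RefSeq table for GRCm38.p6. Capitals mark the core letters on either strand, so CACGT and CACGC are the reverse forms.
Hk2, chr6:82774455-82774614 (minus strand): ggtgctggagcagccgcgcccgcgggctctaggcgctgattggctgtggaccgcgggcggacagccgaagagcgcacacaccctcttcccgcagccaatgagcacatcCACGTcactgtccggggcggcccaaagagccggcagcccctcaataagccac
Pdk1, chr2:71873064-71873223 (plus strand): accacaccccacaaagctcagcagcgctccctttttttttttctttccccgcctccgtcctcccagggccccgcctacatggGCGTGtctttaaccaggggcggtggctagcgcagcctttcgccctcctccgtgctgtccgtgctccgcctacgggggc
P4ha2, chr11:54100764-54100923 (plus strand): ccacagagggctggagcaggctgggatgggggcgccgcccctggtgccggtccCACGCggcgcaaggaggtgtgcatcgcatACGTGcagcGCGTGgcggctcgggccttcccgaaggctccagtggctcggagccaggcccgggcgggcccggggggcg
Bnip3, chr7:138909507-138909666 (minus strand): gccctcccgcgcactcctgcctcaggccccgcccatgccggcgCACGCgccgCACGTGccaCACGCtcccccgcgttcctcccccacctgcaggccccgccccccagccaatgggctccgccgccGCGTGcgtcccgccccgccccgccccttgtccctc
Ankrd37, chr8:45999851-46000010 (minus strand): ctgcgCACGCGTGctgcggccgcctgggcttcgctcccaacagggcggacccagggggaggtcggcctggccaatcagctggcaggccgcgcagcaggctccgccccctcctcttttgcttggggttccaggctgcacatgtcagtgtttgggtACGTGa
In the P4ha2 promoter the matches began 107, 78 and 69 bases before the start. Bnip3 had 5 matches, and its pair at 108 and 107 bases is 1 palindrome, CACGTG, which is also the core of the E-box bound by other factors. The Ankrd37 stretch held 3, at 155, 152 and 6 bases. Pdk1 had its single match 78 bases upstream of the start shown, and no match at the other of its 2 listed starts. In Hk2 the match shown lay 52 bases upstream. Promoters of 36 of the 38 genes were in the table (Bnip3l and Ndrg1 were not), with 54 windows of 250 bases. At least 1 match stood in 42 of the 54 windows (77.8%), against 38.6% of all 32851 promoter windows and 44.0% of those of protein-coding genes. CpG content differed as well, with a median of 14 CpG per window for the listed genes, 6 for all promoters and 10 for protein-coding ones. Its part in the motif share was not tested. The list was made to hold well-known targets of the low-oxygen response, so the higher share is not a finding of these data. Genes with several starts count more than once among the windows, which also cover Gpi1 and Eno1. A match is a run of letters, and binding was not measured.

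Values are log2 intensities from the deposited table, on which 1 unit is a doubling. Changes are taken within a probe set between groups, and levels of different genes are not ranked, since brightness also depends on the probes. Sets of marker genes serve only as a rough guide to which genes are on. Array medians lay between 4.58 and 4.67. The cells' 12 macrophage markers were bright (median 11.55), while 13 lymphocyte and epithelial markers had a median of 3.57, taken here as the level of genes that are off. Egln3 lay below that level in every group mean, and Adm lay at 3.63 in control and below it in the other groups. Array 1 of the LPS with DHA5HT group is named for both agents in its title and for DHA5HT alone in its treatment label. Its Il6 value was 10.21, against 10.17 to 10.55 on the other arrays of that group and 2.83 to 3.21 with DHA5HT alone, and the title was followed. Changes are differences of group means ± SE from limma, with 4 arrays a group and Benjamini-Hochberg adjusted p over all 18820 genes. A change was called where the adjusted p was under 0.05. The labels do not tell whether the arrays of 1 group stand for different cultures, and the p-values then reflect the spread among these arrays, which may be technical.

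LPS changed transcripts of several regulatory steps of glycolysis, while most of those of its lower part did not pass the test. Of the 36 genes, 7 rose and 12 fell, which is 52.8% against 28.4% of all genes (12.6% higher and 15.8% lower) and 49.5% of genes brighter than the median gene. The control and LPS arrays did not overlap for 7 higher and 10 lower genes of the 36, against 29.8% of all genes. The largest increases were those of Hk2, Pfkfb3 and P4ha2, and the largest decreases those of Ankrd37, Ndrg1, Bnip3 and Pdk1. Of the 21 glycolysis genes 4 rose and 5 fell, and this share of 42.9% lay below the 49.5% of brighter genes. Of the 15 hypoxia-response genes 3 rose and 7 fell (66.7%). The median change of the 36 was -0.04, and 20 of them lay below 0. When each array was centred on its own median the split of the 36 became 9 higher and 9 lower, and that of all genes 3043 higher and 2468 lower in place of 2376 and 2970.

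**Figure D1:**
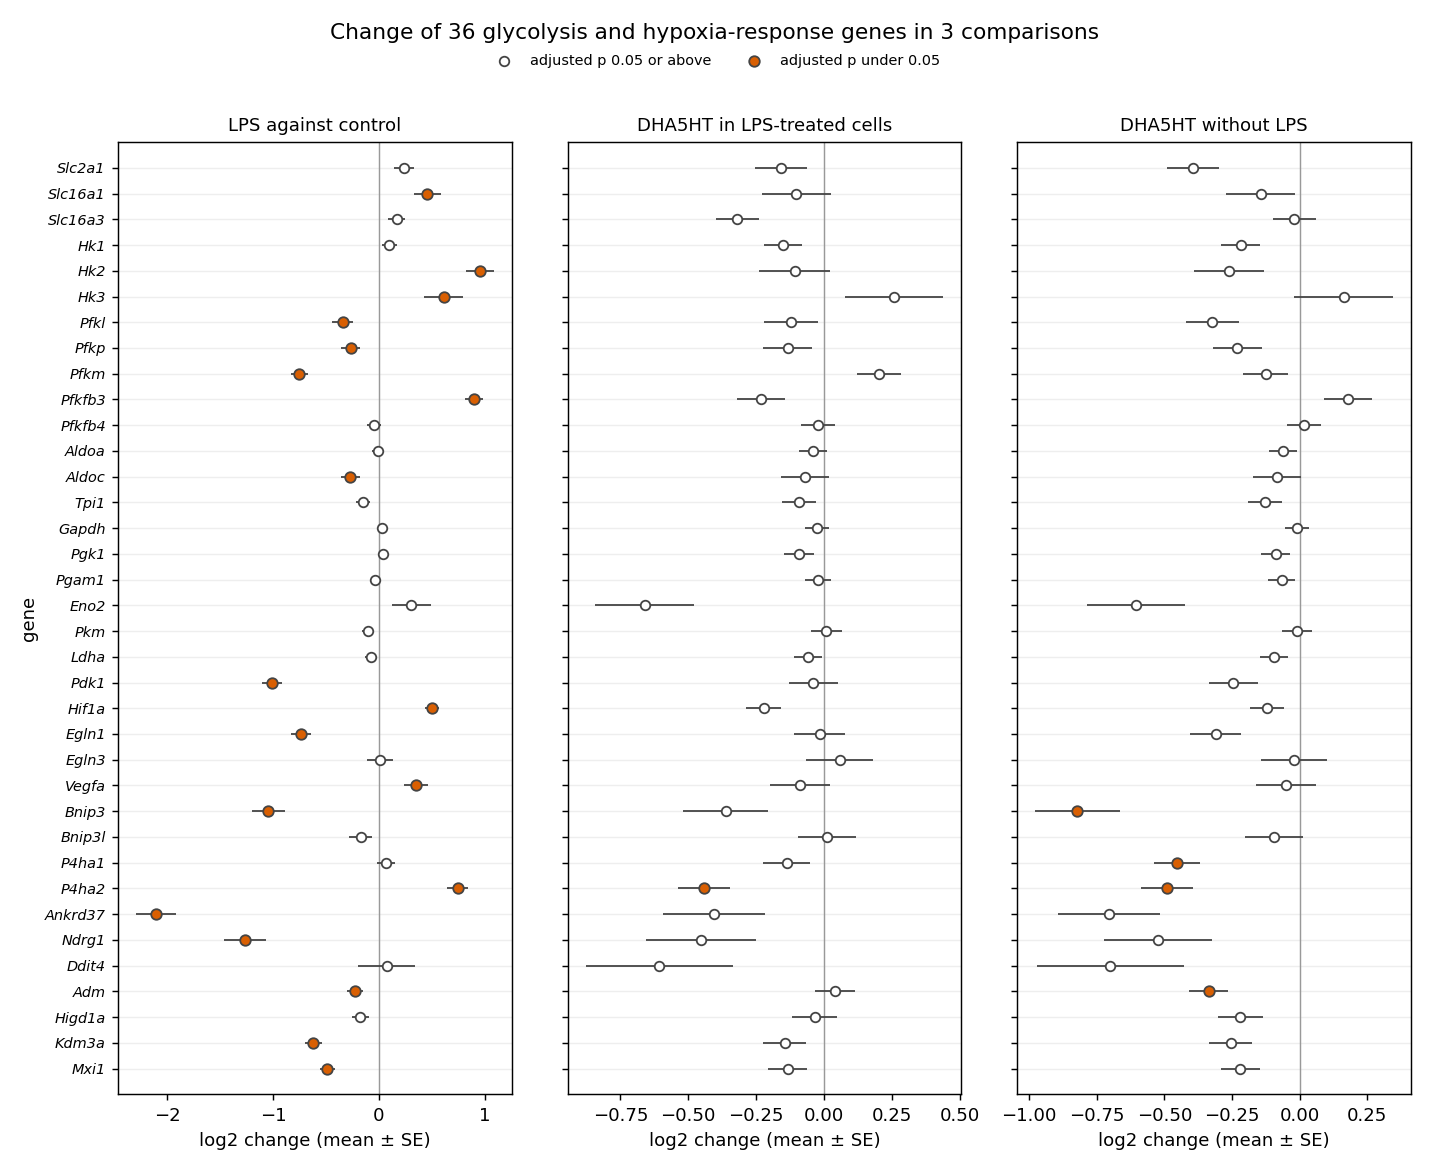
Change of each of the 36 genes (rows) on the log2 scale in the 3 comparisons (panels, each with its own axis), as the difference of group means with its SE, 4 arrays a group. Filled points have an adjusted p under 0.05: 19 for LPS against control, 1 for DHA5HT in LPS-treated cells (P4ha2) and 4 for DHA5HT without LPS.

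Of the 3 hexokinase transcripts, those of Hk2 and Hk3 rose. Hk2, the inducible hexokinase that phosphorylates glucose at the mitochondrial surface, read 8.94, 8.91, 8.67 and 9.21 on control arrays 1 to 4 and 9.81, 9.67, 10.14 and 9.92 on the LPS arrays. The groups did not overlap, and the change was 0.95 ± 0.13 (1.93-fold, adjusted p = 1.83e-05). Hk3, a hexokinase of myeloid cells, went from 8.10, 8.52, 7.88 and 8.42 to 8.63, 9.01, 8.78 and 8.94, a rise of 0.61 ± 0.18 (1.53-fold, adjusted p = 0.0162). Leaving out control array 3 or LPS array 2 ended that call (changes 0.49 to 0.55, adjusted p 0.0515 to 0.0649). In a fit with the replicate number as a block Hk3 had an adjusted p of 0.000119. Hk1, the constitutive hexokinase, had a change of 0.10 that did not pass (adjusted p = 0.361). Among the transporters, Slc16a1, the lactate carrier MCT1, rose by 0.46 ± 0.13 (1.37-fold, adjusted p = 0.0106), from 9.47, 9.17, 9.35 and 9.37 to 9.93, 9.64, 9.89 and 9.74. Slc2a1, the glucose transporter GLUT1, stood at 12.15, 12.30, 11.93 and 12.33 in control and at 12.33, 12.46, 12.39 and 12.46 with LPS. Every LPS array was at or above the highest control array, but the change of 0.23 ± 0.10 missed the threshold (adjusted p = 0.0813). It passed when arrays were centred (0.28, adjusted p = 0.0379), with an intensity trend (adjusted p = 0.0373) and among genes brighter than the median gene (adjusted p = 0.0428). Slc16a3, the lactate exporter MCT4, likewise had 0.17 (adjusted p = 0.14) and 0.22 with centring (adjusted p = 0.0493).

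At the phosphofructokinase step the enzyme's transcripts fell and that of its activator's producer rose. All 3 subunits of phosphofructokinase, the committing enzyme of glycolysis, were lower. Pfkm fell from 7.88, 7.79, 7.82 and 7.96 to 6.87, 7.13, 7.19 and 7.26, a change of -0.75 ± 0.08 (1.68-fold lower, adjusted p = 1.33e-06), with no overlap of the groups. Pfkl changed by -0.34 ± 0.10 (adjusted p = 0.0144) and Pfkp by -0.26 ± 0.09 (adjusted p = 0.036). Both overlapped with control on single arrays, and neither call was firm. With the replicate block both passed (adjusted p = 0.0233 and 0.00828). The Pfkl call was lost without control array 4 (-0.30, adjusted p = 0.0502). The Pfkp call held only without control array 3 or LPS array 4 among the 8 leave-outs (lost at -0.28 to -0.19, adjusted p 0.0518 to 0.139), and it was also lost with centring (-0.22, adjusted p = 0.0937) and in a fit of the compared arrays alone (adjusted p = 0.0761). Pfkfb3, which makes the fructose-2,6-bisphosphate that activates phosphofructokinase, read 6.51, 6.25, 6.36 and 6.38 in control and 7.26, 7.10, 7.51 and 7.24 with LPS. This is a rise of 0.90 ± 0.09 (1.86-fold, adjusted p = 3.72e-07) with no overlap. Pfkfb4, the related enzyme, changed by -0.05 (95% interval -0.18 to 0.09, adjusted p = 0.674).

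The lower steps of the pathway showed small differences, and 12.5% of their genes passed, against 28.4% of all genes and 49.5% of brighter ones. Of the 8 measured genes only Aldoc, a minor aldolase, passed, with -0.27 ± 0.09 (adjusted p = 0.0297). Leaving out control array 2 or 4, or LPS array 1 or 2, ended that call (-0.27 to -0.20, adjusted p 0.0537 to 0.112) and with centring (-0.22, adjusted p = 0.08). Gapdh, often used as a reference transcript, lay at 13.62 ± 0.02 (SD, n = 4) in control and 13.65 ± 0.03 with LPS, and its 17 probe sets gave LPS changes from 0.01 to 0.06. Aldoa, Pgk1, Pgam1 and Pkm changed by -0.01, 0.04, -0.04 and -0.11, with intervals that all lay within -0.22 and 0.16. Their control means were 12.03 to 12.97, and the highest value on any array was 13.68. Whether such bright probe sets hold changes down was not tested. Tpi1, the triose phosphate isomerase, changed by -0.15 (adjusted p = 0.0905). Eno2, another enolase, varied widely in control (8.74, 9.36, 8.64 and 9.33) and had a change of 0.31 ± 0.18 that did not pass (adjusted p = 0.259).

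Of the 2 genes that decide the fate of pyruvate, 1 passed. Ldha, which reduces pyruvate to lactate, changed by -0.08 (interval -0.19 to 0.04, adjusted p = 0.346). Pdk1, a kinase that shuts pyruvate dehydrogenase and so limits the oxidation of pyruvate, read 8.57, 8.54, 8.34 and 8.67 in control and 7.43, 7.44, 7.45 and 7.75 with LPS. All LPS arrays lay below all control arrays, and the change of -1.01 ± 0.09 was 2.01-fold (adjusted p = 1.24e-07).

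Of the HIF-1 alpha system, Hif1a rose and Egln1 fell. Hif1a, the alpha subunit of HIF-1, rose from 9.84, 9.67, 9.73 and 9.80 to 10.24, 10.20, 10.25 and 10.35, a change of 0.50 ± 0.06 (1.42-fold, adjusted p = 8.82e-06). Egln1, the main prolyl hydroxylase that marks HIF-1 alpha for destruction and is itself a HIF target, fell from 8.95, 9.31, 9.06 and 9.36 to 8.46, 8.41, 8.35 and 8.51. The change was -0.74 ± 0.09 (1.67-fold, adjusted p = 8.4e-06). Neither pair of groups overlapped. Egln3, another prolyl hydroxylase, was at the level of genes that are off.

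The other hypoxia targets moved in both directions: 2 of 12 rose, 6 fell and 4 did not pass. Ankrd37, an ankyrin repeat protein induced by HIF-1, had the largest change of all 36. It read 8.08, 8.21, 8.02 and 8.31 in control and 5.76, 6.23, 5.89 and 6.35 with LPS, a change of -2.10 ± 0.19 (4.29-fold, adjusted p = 1.18e-07). Ndrg1, a stress-responsive protein, fell from 10.39, 10.92, 10.13 and 10.83 to 9.09, 9.64, 8.94 and 9.54, by 1.26 ± 0.20 in log2 units (2.40-fold, adjusted p = 8.77e-05). Bnip3, a mitochondrial protein that promotes mitophagy, changed by -1.04 ± 0.16 (2.06-fold, adjusted p = 4.43e-05), from 9.96, 10.19, 9.81 and 10.12 to 8.78, 9.14, 8.89 and 9.09. In each of these 3 genes every LPS array was below every control array. The relative of Bnip3, Bnip3l, changed by -0.17 (adjusted p = 0.289).

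Kdm3a, a histone lysine demethylase, went from 8.41, 8.43, 8.19 and 8.48 to 7.61, 7.80, 7.68 and 7.95, and Mxi1, an antagonist of Myc, from 8.00, 7.96, 7.83 and 8.06 to 7.45, 7.49, 7.40 and 7.57. Their changes were -0.62 ± 0.08 (adjusted p = 9.48e-06) and -0.49 ± 0.07 (adjusted p = 4.35e-05), again with no overlap. Adm, which encodes the vasodilator adrenomedullin, passed at -0.23 (adjusted p = 0.0255) but lies at the level of genes that are off, and leaving out control array 1 or 3, or LPS array 1, ended its call (-0.23 to -0.19, adjusted p 0.0512 to 0.0853) and with centring (-0.18, adjusted p = 0.0778). The 2 targets that rose were P4ha2 and Vegfa. P4ha2, a collagen prolyl hydroxylase, read 8.27, 8.55, 8.17 and 8.47 in control and 9.02, 9.09, 9.06 and 9.26 with LPS (0.74 ± 0.10, 1.67-fold, adjusted p = 8.68e-06). P4ha1, another catalytic subunit of that kind, changed by 0.07 (interval -0.11 to 0.25, adjusted p = 0.637). Vegfa, the angiogenic growth factor, rose by 0.35 ± 0.11 (1.28-fold, adjusted p = 0.0233), from 5.28, 5.36, 5.25 and 5.21 to 5.44, 5.83, 5.33 and 5.91. Leaving out control array 3 or 4, or LPS array 2 or 4, ended the Vegfa call (0.26 to 0.34, adjusted p 0.0526 to 0.0946), as did a fit of the compared arrays alone (adjusted p = 0.0507). With the replicate block Vegfa had an adjusted p of 0.00479. Ddit4, an inhibitor of mTORC1, and Higd1a, a mitochondrial protein, had changes of 0.07 (adjusted p = 0.888) and -0.17 (adjusted p = 0.138).

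**Figure D2:**
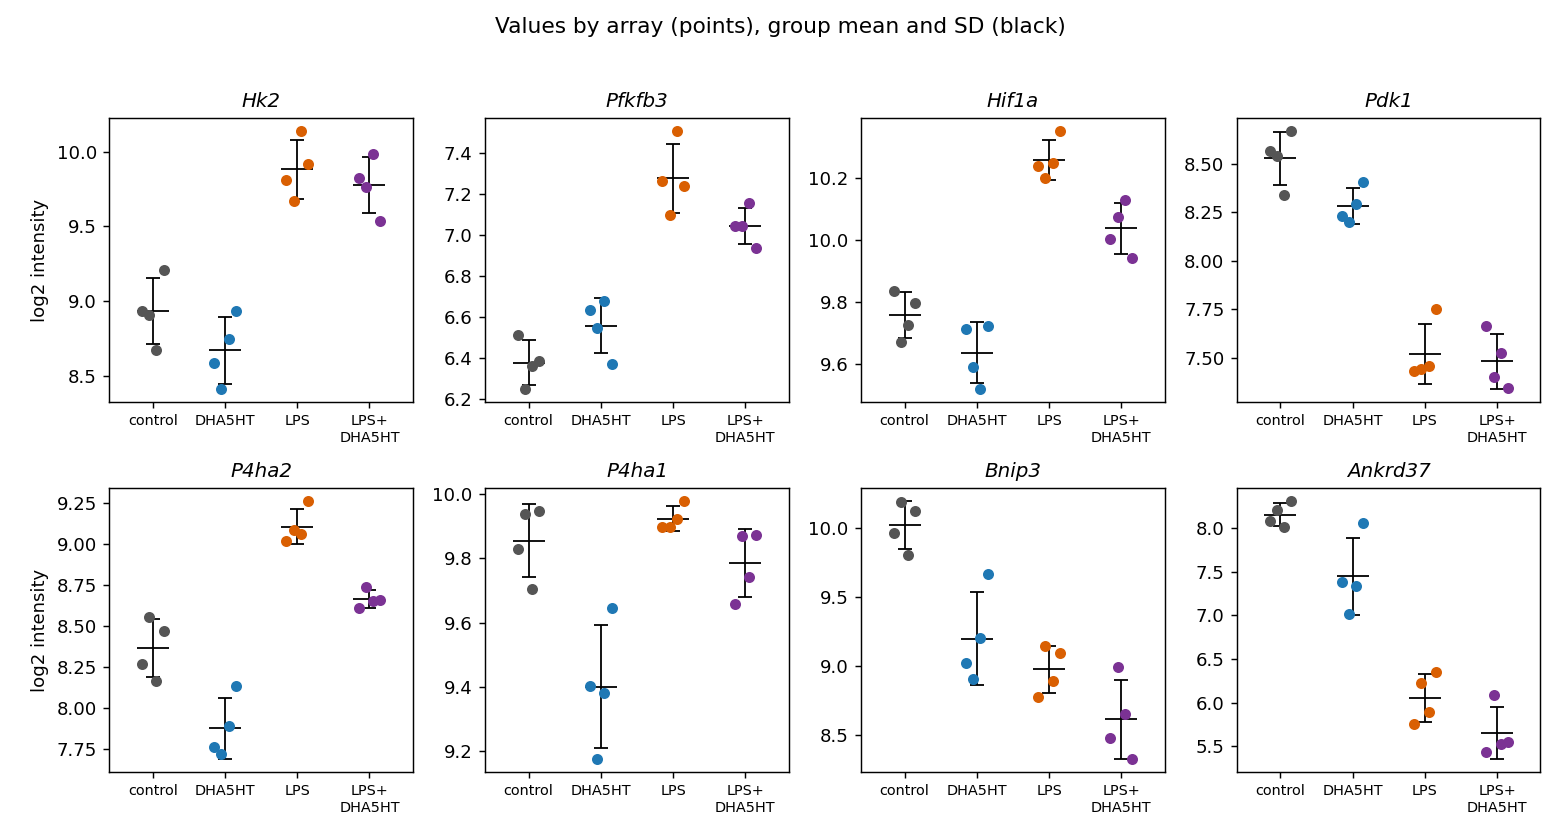
Log2 intensity (vertical axes, each panel with its own range) of 8 genes on the 16 arrays, by group, with array points in order 1 to 4 from left to right and the group mean ± SD in black. P4ha2 is high with LPS (9.02 to 9.26) and lower in both groups with DHA5HT than in their counterparts without it, while Bnip3 and Ankrd37 are highest in control.

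The next comparison asked what DHA5HT did in cells that also received LPS. P4ha2 was the only one of the 36 genes past the threshold, and it was lower with DHA5HT. That is 2.78% of the genes, against 1.79% of all genes, 0.972% being lower. When only the 9410 genes brighter than the median gene were tested, 557 were called, and 4 of the 36. The values of P4ha2 were 8.61, 8.74, 8.65 and 8.66 with LPS and DHA5HT, below all 4 LPS arrays (9.02 to 9.26), a change of -0.44 ± 0.10 (1.36-fold, adjusted p = 0.0267). It still lay above its control arrays (8.17 to 8.55). The LPS change and this change share the LPS arrays. Without LPS array 2 or 4 or LPS with DHA5HT array 1, 3 or 4 the P4ha2 call was lost (-0.45 to -0.39, adjusted p 0.0502 to 0.0862), so it also depends on the array with the label conflict.

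Same-numbered arrays deviated together in both DHA5HT comparisons, and a fit with the replicate number as a block called 4 of the 36 genes, all lower. The share over all genes was then 3.44%, with 1.72% lower. Eno2 went from 9.11, 9.46, 9.22 and 9.50 with LPS to 8.40, 8.94, 8.84 and 8.47, with no overlap. Its change was -0.66 ± 0.18 (adjusted p = 0.0795, and 0.0228 with the block). Without the block it passed with an intensity trend (adjusted p = 0.0407) and among genes brighter than the median gene (adjusted p = 0.0446). Slc16a3 read 5.57, 5.76, 5.81 and 5.60 with LPS and 5.35, 5.35, 5.55 and 5.22 with DHA5HT added, a change of -0.32 ± 0.08 (adjusted p = 0.0523, and 0.0219 with the block). Its call also passed without the block when LPS with DHA5HT array 3 was left out (-0.38, adjusted p = 0.0241), with centring (-0.33, adjusted p = 0.0432), after quantile normalization (adjusted p = 0.0444) and among brighter genes (adjusted p = 0.0236). The values of Ndrg1 with LPS and DHA5HT were 8.70, 9.17, 8.69 and 8.85, a change of -0.45 ± 0.20 (adjusted p = 0.325, and 0.0425 with the block). P4ha2 had an adjusted p of 0.0115 with the block.

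Hk2, Pfkfb3 and Hif1a, which LPS had raised, did not pass when DHA5HT was added. Hk2 read 9.82, 9.77, 9.98 and 9.54 with both agents, a change of -0.11 (interval -0.38 to 0.17, adjusted p = 0.796). Pfkfb3 read 7.04, 7.04, 7.15 and 6.94, a change of -0.23 (interval -0.42 to -0.05, adjusted p = 0.231). Hif1a read 10.00, 10.08, 10.13 and 9.94, below all LPS arrays, yet its change of -0.22 ± 0.06 did not pass (adjusted p = 0.0989, and 0.0847 with the block). It passed with an intensity trend (adjusted p = 0.0414) and among genes brighter than the median gene (adjusted p = 0.0396). Pdk1 and Egln1, which LPS had lowered, had changes of -0.04 and -0.02. Across the 36 genes, 30 lay below 0 (83.3%, against 49.1% of all genes) with a median of -0.10, against 0.00 for all genes. A second probe set of Higd1a changed by 0.26, against -0.03 on the one used. In 7 genes the 4 arrays with DHA5HT were all below the 4 with LPS alone (Slc16a3, Hk1, Pgk1, Eno2, Hif1a, P4ha1 and P4ha2), and in none were they all above. Over all genes 3.91% lay fully lower. Hk3 and Pfkm had the highest values of the list, 0.26 (adjusted p = 0.589) and 0.20 (adjusted p = 0.267).

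Without LPS, DHA5HT lowered 4 of the 36 genes and raised none, that is 11.1% against 0.6% of all genes, 0.478% being lower. With the block the count was also 4, Ndrg1 in place of Adm, against 0.951% of all genes (0.654% lower). All 4 were hypoxia targets in either fit. When only the 9410 genes brighter than the median gene were tested, 154 were called, and 4 of the listed genes. Bnip3 read 9.02, 8.90, 9.21 and 9.67 with DHA5HT, below every control array (9.81 to 10.19), a change of -0.82 ± 0.16 (1.77-fold, adjusted p = 0.0144). P4ha1 read 9.40, 9.18, 9.38 and 9.65 against 9.83, 9.94, 9.70 and 9.95, a change of -0.45 ± 0.09 (1.37-fold, adjusted p = 0.0144). P4ha2 read 7.76, 7.72, 7.89 and 8.13, a change of -0.49 ± 0.10 (1.40-fold, adjusted p = 0.0181). P4ha1 and P4ha2 encode alternative catalytic subunits of the collagen prolyl hydroxylase. Adm, near the level of genes that are off, changed by -0.34 ± 0.07 (adjusted p = 0.0428, and 0.0571 with the block). In each of the 4 genes the DHA5HT arrays were all below the control arrays, which was so for 2.85% of all genes.

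Leaving out single arrays ended these calls. Without control array 2 or 4, or without DHA5HT array 1 or 2, the calls of Bnip3 (-0.79 to -0.72, adjusted p 0.0638 to 0.073), P4ha1 (-0.45 to -0.38, 0.0508 to 0.0733) and P4ha2 (-0.45 to -0.43, 0.0788 to 0.0875) were lost. Adm was lost without control array 1, 3 or 4 or DHA5HT array 1 or 4 (-0.34 to -0.26, adjusted p 0.0907 to 0.129). The count was 0 without control array 4 or DHA5HT array 1, 1 without control array 2 or DHA5HT array 2, and 5 without DHA5HT array 4. That last array had the highest value of its group for Bnip3, P4ha1, P4ha2, Ankrd37, Ndrg1, Ddit4, Eno2 and Slc2a1. In a fit of the compared arrays alone only Bnip3 passed, with P4ha1, P4ha2 and Adm at adjusted p 0.105, 0.125 and 0.194.

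Of the other hypoxia targets, Ankrd37, Ndrg1 and Ddit4 had changes of similar size and more spread. Those of Vegfa, Bnip3l and Mxi1 were smaller, at -0.05 (adjusted p = 0.932), -0.10 (adjusted p = 0.833) and -0.22. Ankrd37 read 7.39, 7.02, 7.33 and 8.07 with DHA5HT, a change of -0.71 ± 0.19 (adjusted p = 0.142), which passed without DHA5HT array 4 (-0.91, adjusted p = 0.00877). Ndrg1 read 9.66, 10.08, 9.93 and 10.52, a change of -0.52 ± 0.20 (adjusted p = 0.383, and 0.0437 with the block). Ddit4 had the widest spread of the list, with 7.48, 7.94, 6.83 and 8.17 in control and 6.46, 6.96, 6.48 and 7.72 with DHA5HT, and its change of -0.70 ± 0.27 did not pass (adjusted p = 0.386). All 15 hypoxia-response genes lay below 0 on the probe sets used, with a median of -0.31. Among them is Egln3, at the level of genes that are off, with -0.02, and Adm, near that level. A second, dimmer probe set of Higd1a (control mean 4.75) changed by 0.28, against -0.22 on the one used. None of the 21 glycolysis genes passed. Their largest differences were those of Eno2, at 8.18, 8.38, 8.21 and 8.88 (-0.60, adjusted p = 0.222), and Slc2a1, at 11.66, 11.60, 11.81 and 12.06 (-0.40 ± 0.10, adjusted p = 0.0878). Slc2a1 passed on all arrays with an intensity trend (adjusted p = 0.02) and among genes brighter than the median gene (adjusted p = 0.0427), and also without control array 3 (-0.48, adjusted p = 0.0203) or DHA5HT array 4 (-0.49, adjusted p = 0.0117). Across all 36 genes 33 lay below 0 (91.7%, against 46.1% of all genes), with a median of -0.18 against 0.01. For Pkm, too, a second probe set had the other sign, 0.04 against -0.01 on the one used.

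**Figure D3:**
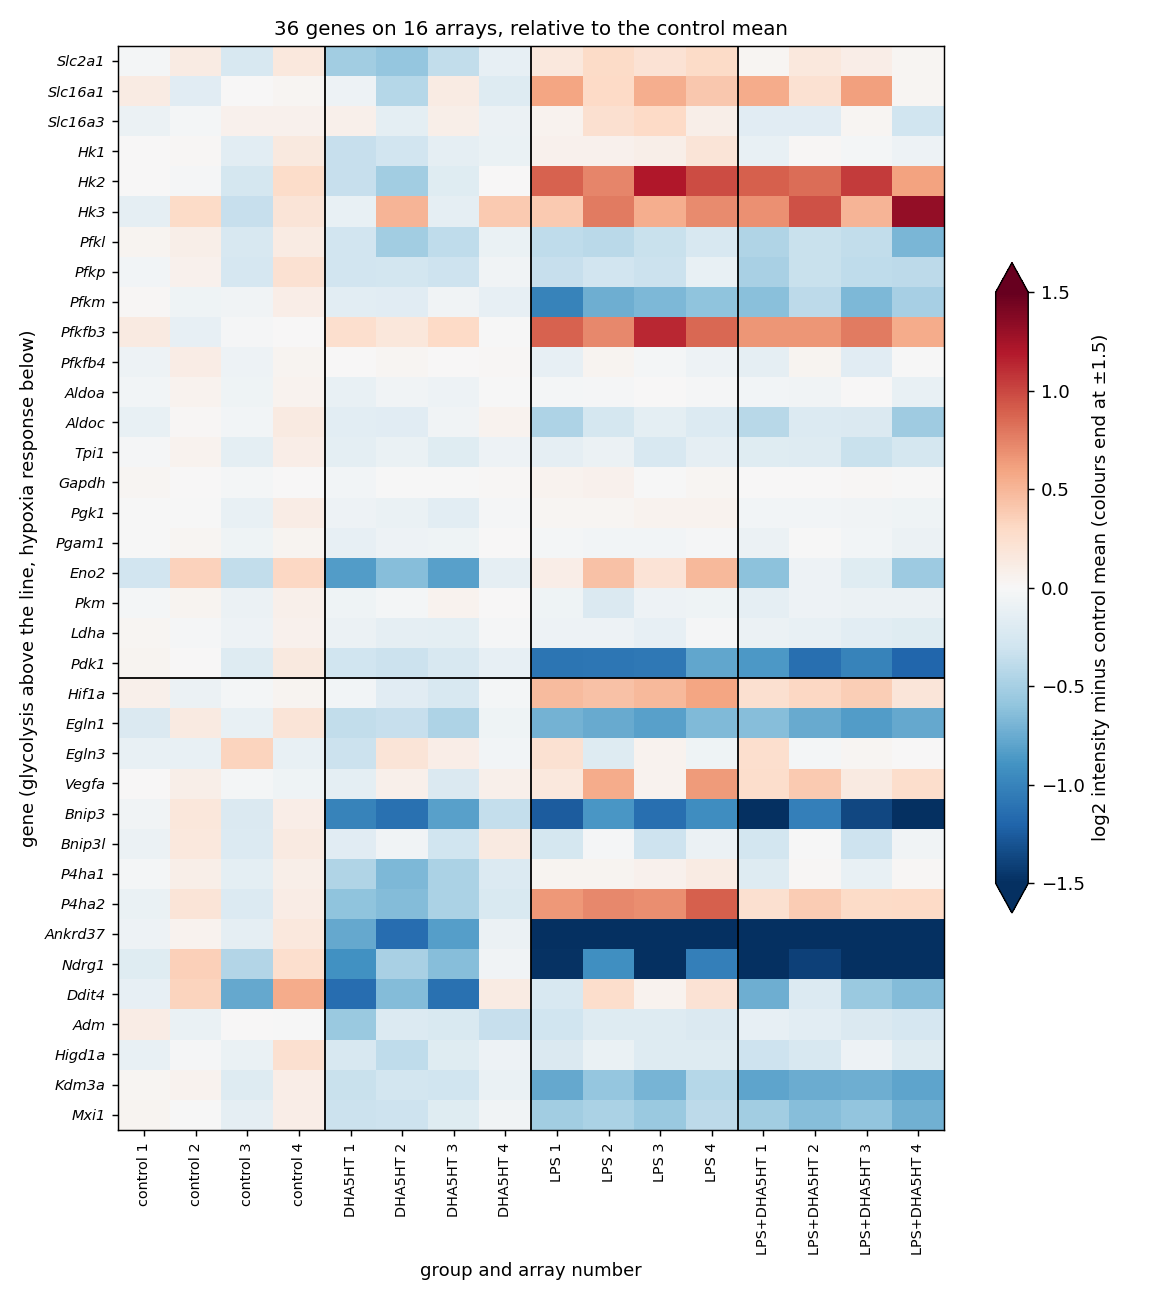
Log2 intensity minus the gene's control mean for 36 genes (rows) on 16 arrays (columns, in 4 groups), with colours ending at 1.5 on either side, so that the lower values, such as those of Ankrd37 and Ndrg1, share the darkest blue. Eno2, Bnip3, P4ha1, P4ha2, Ankrd37 and Ddit4 are blue on DHA5HT arrays 1 to 3 and paler on array 4, where Ddit4 lies above its control mean.

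The difference between the DHA5HT effects, with LPS minus without, passed for none of the 36 genes in limma, with or without the block, against 0.329% of all genes without the block and 0.51% with it. At an unadjusted p under 0.05 the count was 6 of the 36, a higher share than the 1439 of 18820 over all genes (7.65%). The intervals were wide. For Bnip3 the difference was 0.46 (interval -0.01 to 0.92, adjusted p = 0.659), for P4ha1 0.32 (0.06 to 0.57, adjusted p = 0.536) and for Pfkfb3 -0.41 (-0.67 to -0.15, adjusted p = 0.299). For P4ha2 it was 0.05 (-0.24 to 0.33, adjusted p = 0.973) and for Eno2 -0.06 (-0.60 to 0.49, adjusted p = 0.985). Calls made in only 1 of the DHA5HT comparisons were therefore not shown to differ between them.

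Both DHA5HT comparisons use separate arrays, so their values can be set side by side. Over the 36 genes the effects had a Pearson r of 0.706 and a Spearman rho of 0.567. On the probe sets used 28 genes (77.8%) lay below 0 in both. Over all 18820 genes r was 0.262, rho was 0.237 and 26.5% lay below 0 in both. Genes are not independent replicates, so these are descriptions. The mean of the effects, a contrast added after the data had been seen, passed for 6 of the 36 genes, all lower, against 2.83% of all genes (1.62% lower). They were P4ha2 (-0.47 ± 0.07, adjusted p = 0.00103), Bnip3 (-0.59 ± 0.11, adjusted p = 0.00708), Eno2 (-0.63 ± 0.13, adjusted p = 0.0136), P4ha1 (-0.29 ± 0.06, adjusted p = 0.0143), Ankrd37 (-0.56 ± 0.13, adjusted p = 0.0326) and Slc2a1 (-0.28 ± 0.07, adjusted p = 0.0374). P4ha2, Bnip3, Eno2 and P4ha1 passed without any 1 of the 16 arrays. Ankrd37 was lost in 10 of the 16 leave-outs (-0.55 to -0.48, adjusted p up to 0.0716), and kept without control array 1 or 3, DHA5HT array 4, LPS array 1 or 3 or LPS with DHA5HT array 2. Slc2a1 was lost in 12 (-0.28 to -0.25, adjusted p up to 0.0836), and kept without control array 3, DHA5HT array 4, LPS array 1 or LPS with DHA5HT array 2. With the block 12 passed, all lower, against 5.13% of all genes (2.61% lower), the additional genes being Hk1, Pfkp, Hif1a, Ndrg1, Ddit4 and Kdm3a. When only the 9410 brighter genes were tested, without the block, 938 were called, and 12 of the 36.

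**Figure D4:**
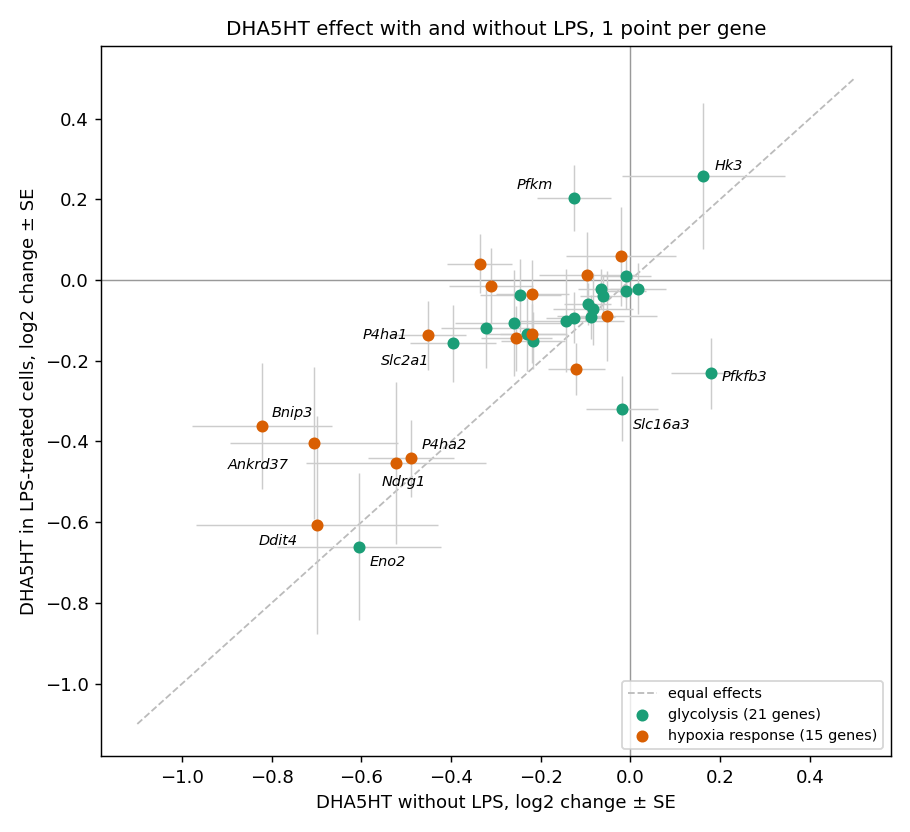
DHA5HT effect of each gene with LPS (vertical) against without LPS (horizontal), as log2 changes with their SE, for 21 glycolysis and 15 hypoxia-response genes. Of the 36 points 28 lie below 0 on both axes, and the dashed line marks equal effects.

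Neighbouring genes of the same pathways, taken from further lists of symbols, give the wider setting. These lists were chosen with earlier results of these data known, so their shares are descriptions only. Of 30 other glycolysis and lactate genes, LPS raised 5 and lowered 9 (46.7%, against 28.4% of all genes and 49.5% of brighter ones). Among them were Gpd2, the mitochondrial glycerol phosphate dehydrogenase (0.88, adjusted p = 2.81e-07), and Slc16a7, the carrier MCT2 (-0.96, adjusted p = 1.52e-07). Pgm2 and Adpgk, a phosphoglucomutase and an ADP-dependent glucokinase, rose by 0.37 (adjusted p = 2.92e-05) and 0.40 (adjusted p = 6.13e-05). DHA5HT changed none of these 30 with LPS (7 at an unadjusted p under 0.05, against 2570 of all 18820 genes). Without LPS it changed 1, Pdk3, a relative of Pdk1 (-0.31, adjusted p = 0.0365). With the block the phosphoglucomutase gene Pgm1 was lower as well without LPS (-0.39, adjusted p = 0.284, and 0.0288 with the block). The Pdk3 call was lost in 7 of 8 leave-outs, all but that of control array 2 (-0.33 to -0.26, adjusted p 0.0519 to 0.155).

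In the pentose phosphate pathway, which branches from glucose 6-phosphate to make NADPH and ribose, LPS raised 1 and lowered 4 of 9 measured genes (55.6%, against 28.4% of all genes and 49.5% of brighter ones). Prps2, a ribose phosphate pyrophosphokinase, fell by 0.63 (adjusted p = 0.000256). Taldo1 and Tkt, the transaldolase and the transketolase, had changes of -0.28 (adjusted p = 0.0139) and -0.17 (adjusted p = 0.0151), and both were lost without LPS array 2 (-0.23, adjusted p = 0.0553, and -0.15, adjusted p = 0.0531), Tkt with centring too (-0.13, adjusted p = 0.0866). Rpe, an epimerase, rose by 0.24 (adjusted p = 0.0147), and that call was lost without control array 2 (0.18, adjusted p = 0.059). Adding DHA5HT to LPS raised 2 of the 9 (22.2%, against 1.79% of all genes and 557 of the 9410 brighter ones tested alone). These were Pgd, the phosphogluconate dehydrogenase (0.39 ± 0.06, 1.31-fold, adjusted p = 0.00347), and Taldo1 (0.46 ± 0.08, 1.38-fold, adjusted p = 0.00662). Both passed in each of the 8 leave-outs, but not in a fit of the compared arrays alone (adjusted p = 0.0541 and 0.0719).

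Of 16 measured HIF pathway regulators, LPS raised 2 and lowered 3, a share of 31.2% that is near the 28.4% of all genes and below the 49.5% of brighter ones. Arnt2, a partner subunit for HIF, rose by 1.04 (adjusted p = 9.49e-07) and Siah2, a ubiquitin ligase that acts on prolyl hydroxylases, by 0.46 (adjusted p = 1.24e-05). Epas1, which encodes HIF-2 alpha, changed by -0.76 (adjusted p = 8.67e-05). Rbx1, a ubiquitin ligase subunit, changed by -0.17 (adjusted p = 0.0259) and lost its call on leaving out control array 1 or 4, or LPS array 1 or 2 (-0.17 to -0.14, adjusted p 0.0585 to 0.0954), with centring (-0.13, adjusted p = 0.139) and in a fit of the compared arrays alone (adjusted p = 0.0776). DHA5HT changed none of the 16 in limma with or without LPS. At an unadjusted p under 0.05 there were 5 and 2, against 2570 and 1854 of all 18820 genes. The fit with the block, however, called Epas1 higher without LPS (0.45, adjusted p = 0.142, and 0.00889 with the block).

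Of 42 other hypoxia-response genes, LPS raised 11 and lowered 14 (59.5%, against 28.4% of all genes and 49.5% of brighter ones). Edn1, the vasoconstrictor endothelin, had the largest change, 4.37 (20.7-fold, adjusted p = 3.87e-10), and Mxd1, a Myc antagonist, rose by 1.15 (adjusted p = 9.63e-09). Trf, the iron carrier transferrin, and Zfp395, a zinc finger protein, changed by -1.13 (adjusted p = 5.57e-10) and -1.23 (adjusted p = 9.51e-08). With LPS present DHA5HT lowered 7 of the 42 and raised 1 (19.0%, against 1.79% of all genes and 557 of the 9410 brighter ones tested alone). The lower ones included Mxd1 (-0.56, adjusted p = 0.00235), Rsbn1, a gene of the round spermatid basic protein family (-0.54, adjusted p = 0.00318), and Fam162a, a mitochondrial protein (-0.57, adjusted p = 0.0111). Gbe1, the glycogen branching enzyme, rose by 0.56 (adjusted p = 0.0169), a call lost without LPS with DHA5HT array 4 (0.52, adjusted p = 0.0579) and in a fit of the compared arrays alone (adjusted p = 0.0503). It was also the only 1 of the 42 whose DHA5HT effects differed (0.78, adjusted p = 0.0434), which was lost in 13 of 16 leave-outs (0.70 to 0.81, adjusted p 0.0521 to 0.114), all but those of control array 3, DHA5HT array 4 and LPS with DHA5HT array 1. It was also lost with centring (0.77, adjusted p = 0.0603), after quantile normalization (0.76, adjusted p = 0.056) and with array weights (0.76, adjusted p = 0.0572). Without LPS DHA5HT raised 1, Tfrc, the transferrin receptor (0.45, adjusted p = 0.0097), a call lost without DHA5HT array 2 (0.42, adjusted p = 0.0511). With the block 2 more were called there, both lower: Ero1a, an oxidase of the endoplasmic reticulum (-0.67, adjusted p = 0.109, and 0.00706 with the block), and Jmjd6, a hydroxylase (-0.24, adjusted p = 0.0632, and 0.0413 with the block).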

How the data were processed

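The deposited values are log2 intensities of an Affymetrix whole-transcript array, made by RMA per the submitters' processing notes (background correction, normalization between arrays, 1 summary per probe set). The RMA version, the annotation and any filter were not given in the sources used here. Of 35556 probe sets, 21218 named exactly 1 gene in the array's gene table, 1881 named several and 12457 were not in it. The probe set with the highest mean over the 16 arrays stood for each of 18820 genes. Groups followed sample titles.

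Group means were fitted over all 16 arrays with lmFit and eBayes of limma 3.58.1 under R 4.3.3 (two-sided, residual degrees of freedom 12). The 5 comparisons were LPS against control, DHA5HT with and without LPS, the difference of these effects, and their mean. The members and lists were chosen with earlier results of these data known, and every measured member is named. Of other lists up to 4 genes with the smallest p among those past the threshold are named.

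Pairing by replicate number was checked as the correlation of same-numbered arrays' deviations from group means (0.116 to 0.205 with LPS, 0.131 to 0.183 without, all 4 pairs over 0.1), from the data only. Alternatives were the block, an intensity trend, a brightness filter, further normalization, centring, all probe sets, array weights, a threshold of 0.01, compared arrays alone and leave-outs. The fit was tested on simulated data. Promoters were searched with Python 3.11.15 and figures drawn with matplotlib 3.10.9. The number of arrays limits the precision.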

Additional observations from a re-analysis of the deposited data

Results flagged for a closer look

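Among 144 sets of 4 arrays (36 genes in 4 groups), 5 had 1 array whose gap to its nearest neighbour exceeded Dixon's 95% critical share of the range. Chance flags about 1 in 20 such sets, so 5 is within what chance gives. Hk1 read 10.49 on LPS array 4, against 10.36 to 10.38 on the others. Pfkp read 11.41 on DHA5HT array 4, against 11.15 to 11.18. Pkm read 12.40 on LPS array 2, against at least 12.55. Pdk1 read 7.75 on LPS array 4, against 7.43 to 7.45. Egln3 read 3.73 on control array 3, against 3.28 to 3.29, where the gene is at the level of genes that are off. No gene among the 36 had a difference between its DHA5HT effects that passed limma's threshold, and 6 had an unadjusted p under 0.05, against 7.65% of all genes.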

How the results depend on the processing

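The count of genes among the 36 for LPS against control was 12 at a threshold of 0.01 and 15 to 18 in the leave-outs (all genes 4844 to 5081). For DHA5HT with LPS it was 4 with the block, 3 with an intensity trend, 4 among genes brighter than the median gene, 2 after quantile normalization, 2 with centring, 0 at a threshold of 0.01 and 0 to 1 in leave-outs. Over all genes that comparison gave 647 with the block, 557 among brighter genes, 81 at 0.01, 86 on compared arrays alone, and 143 (without LPS array 2) to 289 in leave-outs, with 222 without LPS array 1, 223 without LPS array 3, 177 without LPS array 4, 180 without LPS with DHA5HT array 1 and 154 without array 4 of that group; centring gave 110 higher and 216 lower in place of 154 and 183. Without LPS it was 0 at 0.01, 1 on compared arrays alone and 0 to 5 in leave-outs; over all genes 179 with the block and 83 to 116 in leave-outs. The difference of effects had 0 to 0 of the 36 in leave-outs, and over all genes 96 with the block, 28 at 0.01 and 34 to 62 in leave-outs. The mean effect called 12 with the block, 11 with a trend, 12 among brighter genes, 2 at 0.01 and 4 to 12 in leave-outs (12 without control array 3, 11 without DHA5HT array 4); over all genes 966, 938 among brighter genes, 168 at 0.01 and 317 to 496 in leave-outs, 317 without control array 4 and 344 without DHA5HT array 2, and with centring 151 higher and 331 lower in place of 229 and 304. The cause was not tested. No called value changed direction.

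For LPS against control same-numbered arrays correlated by 0.0995 to 0.131, over 0.1 in 3 of 4 pairs, so the block is given above for a few calls only. The minimum of 0.1 does not set this comparison apart. Each of its 8 arrays correlated best with its own number, against 7 of 8 for DHA5HT with LPS and 8 of 8 without LPS, a hint from the data. With the block 21 of the 36 were called and no call was lost, the additional genes being Tpi1 (adjusted p = 0.0308) and Bnip3l (adjusted p = 0.0236).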

Other observations

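Some of the 36 genes varied with the array number within groups, a pattern noticed in the data. In the control group Ndrg1 read 10.92 and 10.83 on arrays 2 and 4 and 10.39 and 10.13 on arrays 1 and 3, and Ddit4 read 7.94 and 8.17 against 7.48 and 6.83. Both arrays 2 and 4 lay above both arrays 1 and 3 in all 4 groups for 3 of the 36 genes (Hk3, Bnip3l and Ndrg1, 8.33%), against 1.41% of all genes. In 3 or more groups this held for 11 of the 36 (30.6%), against 5.59% of all genes. The reverse order in all 4 groups was found for none of the 36 and for 1.54% of all genes, and in 3 or more groups for 1 of the 36, Slc16a1, and for 6.51% of all genes. Hif1a and Ldha showed neither order in any group. Within-group SDs were otherwise ordinary, with a median of 0.13 for the 36 genes and 0.12 for all genes. Ddit4 (0.448), Ndrg1 (0.329) and Ankrd37 (0.307) had the widest.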
